A study of Mus musculus with 21 samples.

Results

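The myeloid lineage transcription factors described here are 9 genes: Spi1, Cebpa, Cebpb, Cebpe, Irf8, Gfi1, Klf4, Runx1 and Gata2. They were taken by gene symbol, 9 of the 16779 symbols that occur in any of 3 deposited expression tables. The inhibitor and knockdown tables gave values for 8 of the 9 members each and the overexpression table for 9 of 9. Gata2 was read from the overexpression table only and was not analysed here in the other experiments.

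The 21 RNA libraries came from established mouse lines of acute myeloid leukaemia, all grown with murine stem cell factor. In the inhibitor experiment, cells transformed by flag-tagged NUP98-NSD1, a fusion of a nucleoporin with a histone methyltransferase, were kept for 4 days with the vehicle DMSO or with 3 µM of UNC1999 or JQEZ5, a pair of inhibitors of PRC2, the methyltransferase complex of histone H3 lysine 27 (3 libraries each). In the knockdown experiment, NUP98-NSD1 cells carried the pLKO.1-puro lentivirus, either empty (shEV) or with an shRNA against Kdm5b, a demethylase of histone H3 lysine 4 (shKdm5b), and were selected with puromycin (3 libraries each). In the overexpression experiment, cells transformed by flag-tagged MLL-AF9, in which MLL, a methyltransferase, is joined to AF9, carried the MSCV-neo retrovirus, either empty (EV), with wild-type Kdm5b (WT) or with the demethylase-dead mutant H499A (2 libraries each). Every group therefore carries a leukaemia fusion, and no normal myeloid cells were compared. The labels name 1 shRNA group and no scrambled hairpin, give no time after infection, and do not say whether libraries came from separate cultures or how many clones a line holds. The p-values therefore measure the spread between these libraries, which may be technical.

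These 9 factors bind DNA at different stages of myeloid development. PU.1, the product of Spi1, and RUNX1 open and hold myeloid enhancers, and GATA2 acts in stem cells, early progenitors, mast cells and basophils. C/EBPα moves progenitors into the granulocyte and monocyte branch, C/EBPβ takes part in macrophage genes and in granulocyte production under stress, and C/EBPε acts in the last steps of the neutrophil. IRF8 favours monocytes and dendritic cells over granulocytes, KLF4 acts with it in monocytes, and the repressor GFI1 favours granulocytes. In acute myeloid leukaemia several of them are mutated or held at low activity, which is why their levels are read as a description of the state of the cells.

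The members lie on 8 mouse chromosomes. In GENCODE M21 on GRCm38 they are Spi1 (ENSMUSG00000002111.8, chromosome 2, 91082390 to 91115756), Cebpb (ENSMUSG00000056501.3, chromosome 2, 167688915 to 167690418), Klf4 (ENSMUSG00000003032.8, chromosome 4, 55527143 to 55532466), Gfi1 (ENSMUSG00000029275.18, chromosome 5, 107716657 to 107726036) and Gata2 (ENSMUSG00000015053.14, chromosome 6, 88193891 to 88207032). The others are Cebpa (ENSMUSG00000034957.10, chromosome 7, 35119293 to 35121928), Irf8 (ENSMUSG00000041515.10, chromosome 8, 120736358 to 120756694), Cebpe (ENSMUSG00000052435.7, chromosome 14, 54710360 to 54712174) and Runx1 (ENSMUSG00000022952.17, chromosome 16, 92601466 to 92826149). Other annotated genes overlap some of them: Tmem189 lies opposite Cebpb, Gm45091 opposite Cebpa, Gm26626 opposite Runx1 and A430072P03Rik opposite Gfi1, while the read-through gene Gm20388 spans Irf8 on its own strand. Whether reads were assigned by strand is not given in the sources used here, so reads of these partners cannot be told apart from those of the members.

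Promoter sequences are shown for Cebpa, Cebpb and Irf8, whose levels moved furthest among the well-expressed members. Each is the 250 bases upstream of the annotated start, 5′ to 3′, from RefSeq on GRCm38.p6, with capitals marking every match to the 8 motifs listed after them.
Cebpa, chr7:35119043-35119292, plus strand: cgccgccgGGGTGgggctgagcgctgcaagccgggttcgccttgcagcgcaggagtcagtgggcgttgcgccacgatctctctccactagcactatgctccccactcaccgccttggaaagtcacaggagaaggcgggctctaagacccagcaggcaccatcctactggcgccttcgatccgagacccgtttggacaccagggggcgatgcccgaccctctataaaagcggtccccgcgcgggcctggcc
Cebpb, chr2:167688665-167688914, plus strand: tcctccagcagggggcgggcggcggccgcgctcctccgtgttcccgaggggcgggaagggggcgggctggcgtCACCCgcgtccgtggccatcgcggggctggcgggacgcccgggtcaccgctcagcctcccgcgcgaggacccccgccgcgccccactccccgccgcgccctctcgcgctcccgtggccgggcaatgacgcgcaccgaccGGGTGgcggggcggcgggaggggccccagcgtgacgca
Irf8, chr8:120736108-120736357, plus strand: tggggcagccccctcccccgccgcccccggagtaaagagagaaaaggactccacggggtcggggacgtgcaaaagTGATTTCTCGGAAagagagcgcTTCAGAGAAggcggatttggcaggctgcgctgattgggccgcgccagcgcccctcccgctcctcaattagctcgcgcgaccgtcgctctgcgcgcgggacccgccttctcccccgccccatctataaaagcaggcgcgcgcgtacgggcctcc

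The motifs were searched on both strands, and their share among 32851 promoters of the same length gives the background. They were TTGCNNAA for C/EBP (9.56% of promoters), GAGGAA for PU.1 (23.3%), TGTGGT for RUNX (14.0%), AGATAA for GATA (9.99%), AAATCA for GFI1 (12.4%), GAAA, NN and GAAA in a row for IRF (2.98%), TTCNNNGAA for the interferon-gamma activated site bound by STAT factors (7.02%) and CACCC for KLF (52.0%). Cebpa held 1 KLF match and Cebpb 2, a motif that occurs in most promoters. Irf8 held a GFI1 match, TGATTT on the minus strand, and 2 matches to the interferon-gamma activated site, TTCTCGGAA and TTCAGAGAA, the first of which overlaps the GFI1 match. The windows differ in base composition, with 66.4% G or C in Cebpa, 81.6% in Cebpb and 67.2% in Irf8. Of the 9 members, 7 had an entry in the promoter table, and Spi1 and Cebpe had none. A match is a description of letters and not a bound site.

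Depth ran from 12.8 to 18.9 M reads per library in the inhibitor experiment, 21.3 to 34.8 M in the knockdown and 17.3 to 20 M in the overexpression. UNC1999 library 3, the shallowest at 12.8 M, stood apart with 294 genes at 0, where the other inhibitor libraries had 92 to 143. Without it the same number of members, 4 of 7, was called with UNC1999, with log2 differences of 0.49 for Klf4, -0.21 for Cebpa, -0.11 for Irf8 and -0.11 for Runx1 (limma adjusted p = 2.02e-06, 0.00338, 0.0249 and 0.0316). The counts without it were 28 other transcription factors and 31 targets, against 28 and 32 with it, and the Klf4 difference of UNC1999 from JQEZ5 was 0.40 log2 units (limma adjusted p = 3.58e-05). The deposited values are log2 values after a variance-stabilising transformation, which was undone to give the normalised read counts used below for levels. Tests used the deposited log2 values with limma, Benjamini-Hochberg adjustment covered every tested gene of a table, and a call is an adjusted p under 0.05. A gene was tested where its value exceeded the table's minimum by 1 log2 unit or more in at least 3 libraries (2 in the overexpression table), the size of the smallest group. Cebpe fell below that filter in all 3 tables and Klf4 in the knockdown and overexpression tables, so that 7, 6 and 7 members were tested. For members below it, p was taken from a second fit without the filter, named the fit of all genes below. The transformation compresses the log2 differences, most for such low genes, so that they understate the ratio of counts. This holds for tested members too: Klf4 with UNC1999 had 0.43 log2 units at a 1.74-fold ratio of counts. Sizes of log2 differences are therefore not alike between members of different level. Kdm5b itself was 61.5% lower in shKdm5b than in shEV (limma adjusted p = 0.00401, in the fit of all genes). It was below the filter there, with 71 to 112 reads per library in shEV and 17 to 34 in shKdm5b. Its level was 2.52 counts per M reads in shEV, against 40.1 in DMSO. With UNC1999 Kdm5b was 1.46-fold above DMSO (limma adjusted p = 1.65e-07), while JQEZ5 gave no call (limma adjusted p = 0.112). In MLL-AF9 cells Kdm5b was 11.6-fold above EV in WT and only 2.42-fold above EV in H499A. A difference between WT and H499A therefore carries both the mutation and a 4.8-fold gap in Kdm5b level, which cannot be told apart. All 8 markers that define myeloid leukaemia blasts here (Ptprc, Kit, Itgam, Mpo, Elane, Ctsg, Fcgr3, Csf1r) were present in every table, and 8, 8 and 7 of them passed the filter.

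Per kilobase of exon, Spi1 stood highest of the members in every group except H499A, where Cebpb did (99.5 against 84.8 counts per M reads, CPM, per kilobase). Per kilobase of exon, in DMSO, the level was 96.4 for Spi1, 88.2 for Cebpb, 34.9 for Cebpa and 20.8 for Irf8. It was 10.9 for Gfi1, 5.99 for Runx1, 3.11 for Klf4 and 1.60 for Cebpe. In the MLL-AF9 cells with EV the order was Spi1 at 72.6, Cebpa at 48.3, Cebpb at 40.3, Irf8 at 26.5, Gata2 at 14.0 and Runx1 at 8.94 CPM per kilobase. There, Cebpe at 5.59 stood beside Gfi1 at 5.34, and Klf4 was at 0.31.

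**Figure D1:**
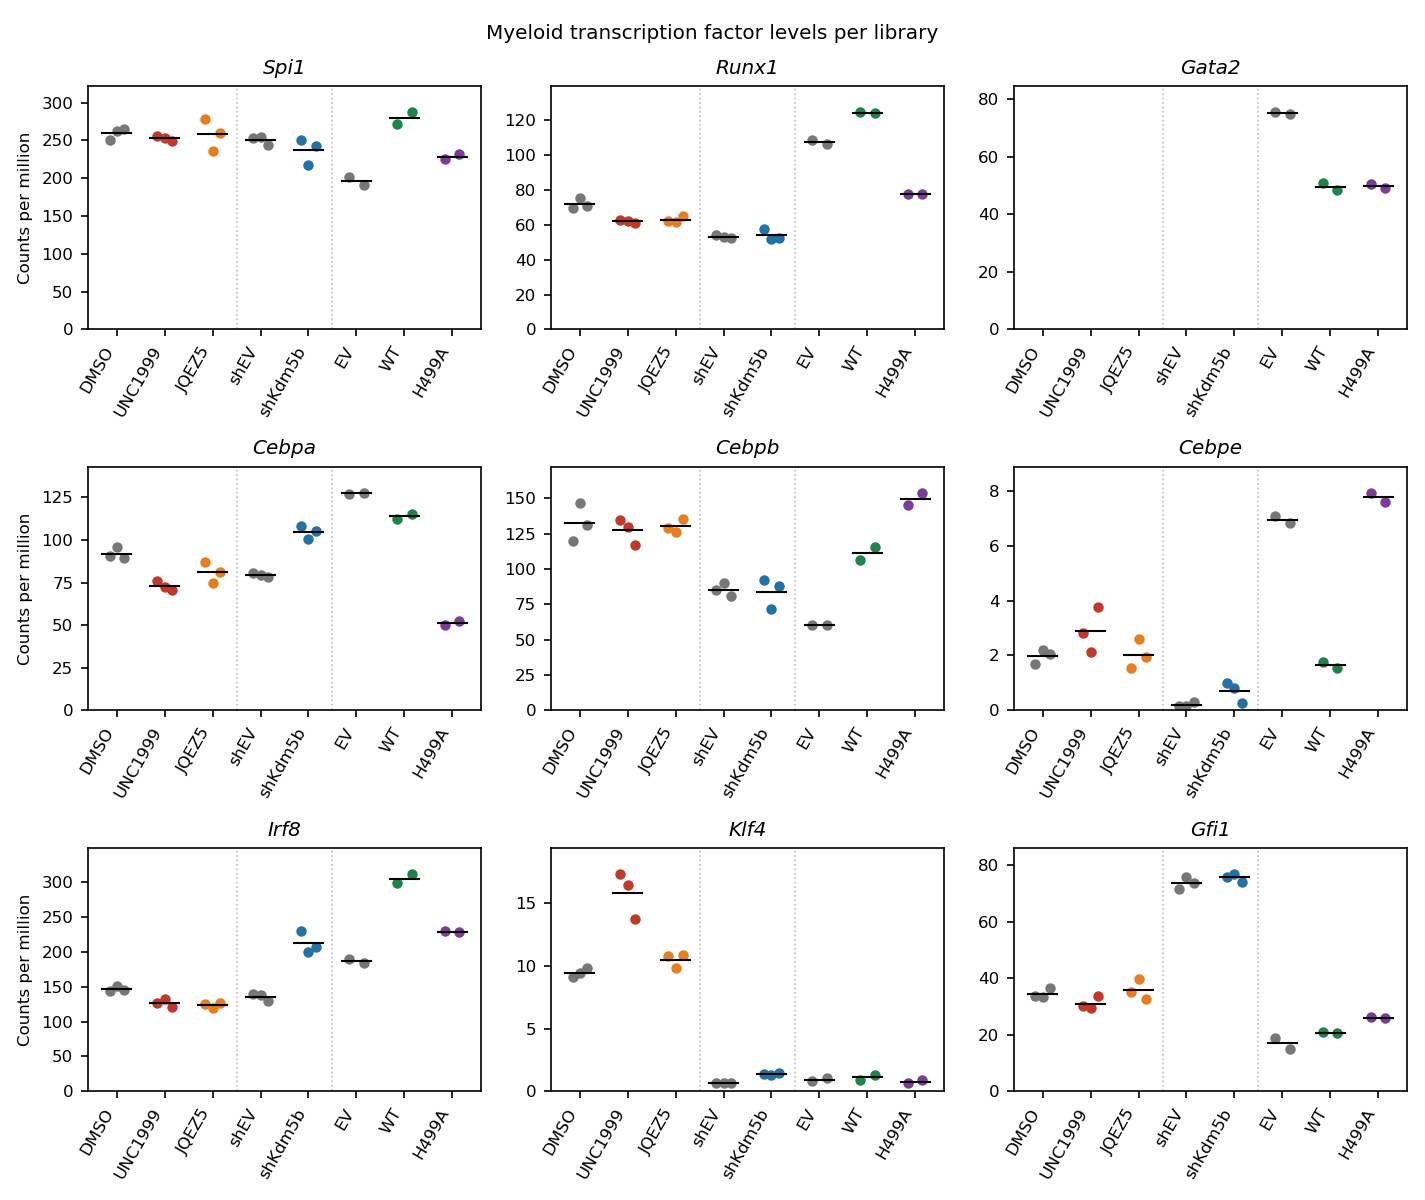
Level of each member in every library, in counts per M reads (CPM, linear axes from 0), by group, with bars at the group means and dotted lines between the 3 separately normalised tables. Klf4 is highest in the UNC1999 libraries, and Cebpa is lowest in the H499A libraries.

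Across the 8 groups, the tables were normalised separately, so the orders of CPM levels that follow are descriptions. Cebpa ran from 127 in EV over 114 in WT, 105 in shKdm5b, 91.9 in DMSO, 81.1 in JQEZ5, 79.3 in shEV and 73.2 in UNC1999 to 51.3 in H499A, and only JQEZ5 and shEV overlapped as neighbours. Cebpb ran the other way in the MLL-AF9 cells, at 149.6 in H499A, 111 in WT and 60.5 in EV, the highest and lowest means of the series, though H499A overlapped DMSO. Its 3 inhibitor groups overlapped each other at 127.4 to 132.7, as did shEV at 85.5 and shKdm5b at 84.1. Irf8 was highest in WT at 304.5 and lowest in JQEZ5 at 124, with H499A and shKdm5b overlapping as neighbours, as did shEV, UNC1999 and JQEZ5. Between the 2 control cultures of NUP98-NSD1 cells, Klf4 was at 9.47 in DMSO and 0.67 in shEV, Cebpe at 1.98 and 0.21, Cebpb at 132.7 and 85.5, and Gfi1 at 34.6 and 73.7. DMSO cells had the vehicle for 4 days, while shEV cells carried an empty lentivirus and were selected with puromycin. Which of 2 library kits made which library is not stated. Treatment, culture, kit and table therefore cannot be told apart there.

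Counts of called members are to be read against the share of all genes called in the same comparison. With UNC1999, 4 of 7 tested members passed, against 47.9% of 10692 tested genes: 1 was higher (23.9% of all genes) and 3 were lower (24%). With JQEZ5, 2 of 7 passed, against 23.7% of all genes, and both were lower, as were 10.5% of all genes, with 13.1% higher. Between UNC1999 and JQEZ5 1 of 7 differed, higher with UNC1999, against 36.4% of all genes, 18.7% higher and 17.7% lower. After Kdm5b knockdown 2 of 6 passed, both higher, against 32.5% of 10808 genes, 15% higher and 17.4% lower. In MLL-AF9 cells 7 of 7 tested members passed with WT, against 62.2% of 9456 genes: 5 were higher (29.8% of all genes) and 2 lower (32.4%). With H499A 7 of 7 passed, against 49.6% of all genes: 4 were higher (22.7%) and 3 lower (26.9%). Between WT and H499A 6 of 7 differed, against 54.4% of all genes: 4 were higher in WT (28.2%) and 2 lower (26.3%). In the fits of all genes, Klf4 after knockdown and Cebpe with WT and between WT and H499A were called as well, where 23.6%, 48.1% and 41.6% of all genes were called. In those fits, the shares were 37.5% with UNC1999, 17.1% with JQEZ5, 26.9% between the inhibitors and 38.8% with H499A, and the members below the filter were not called there. The median log2 difference of the tested members was -0.07 with UNC1999, 0.01 with JQEZ5, 0.01 after knockdown, 0.15 with WT and 0.19 with H499A, where the medians of all genes lay between -0.01 and 0.01.

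**Figure D2:**
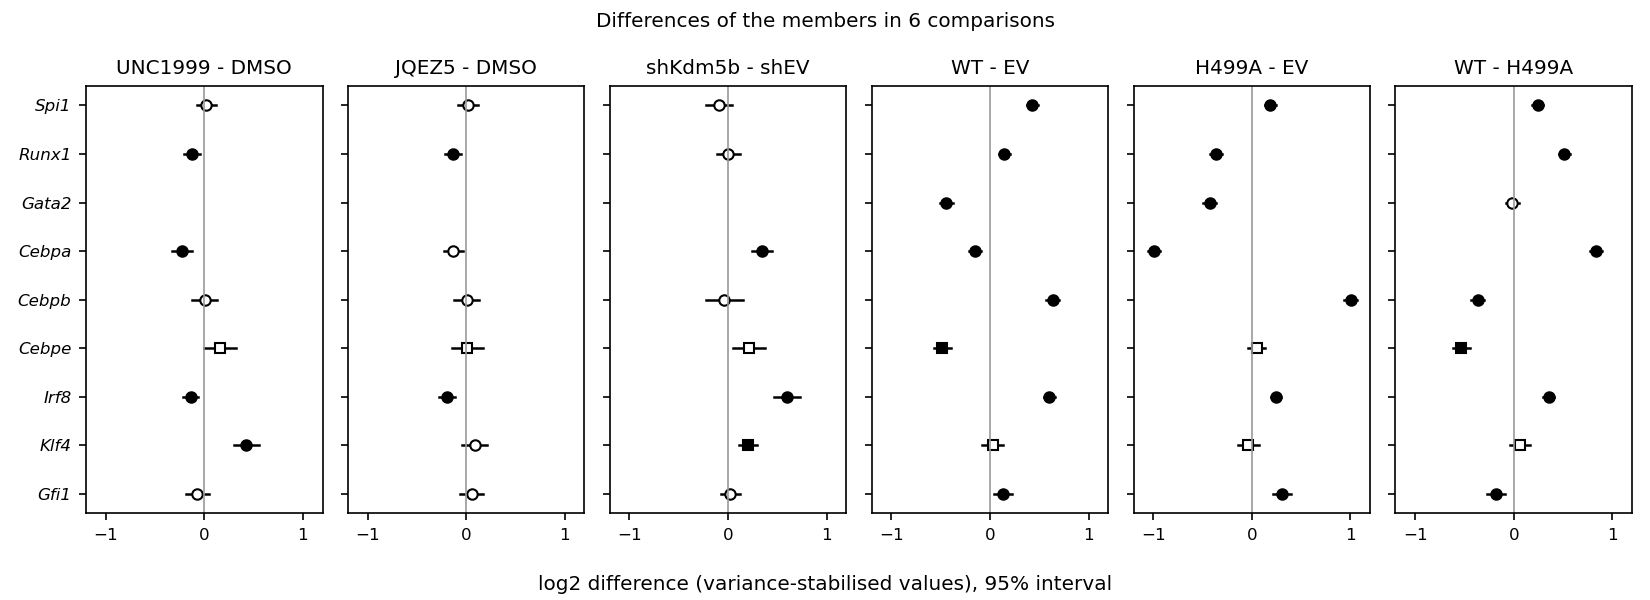
Log2 difference of each member with its 95% interval (limma) in 6 comparisons, filled symbols marking an adjusted p under 0.05 and squares marking members below the filter, whose values come from the fit of all genes. The widest spread is in H499A against EV, where Cebpa stands at -0.99 and Cebpb at 1.00.

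Spi1, which encodes PU.1, did not differ beyond its spread in the NUP98-NSD1 cells and rose in the MLL-AF9 cells. The normalised counts were 3782, 3976 and 4044 in DMSO, 4072, 3995 and 3919 in UNC1999, and 4310, 3642 and 4019 in JQEZ5. These groups overlapped, and the log2 difference from DMSO was 0.02 ± 0.05 (SE) with each inhibitor, with a 95% interval of -0.08 to 0.12 for UNC1999. After knockdown Spi1 stood at 7422, 6333 and 7051, against 7469, 7513 and 7210 in shEV, a log2 difference of -0.09 ± 0.06 that missed the threshold (limma adjusted p = 0.256). Without library 1 of shKdm5b, the difference was -0.14 and the adjusted p 0.0258. In the MLL-AF9 cells Spi1 counts were 3754 and 3563 in EV, 4990 and 5248 in WT, and 4183 and 4290 in H499A. No groups overlapped there. WT was 1.40-fold above EV (log2 difference 0.43 ± 0.03, limma adjusted p = 5.38e-13) and H499A 1.16-fold (0.19 ± 0.03, limma adjusted p = 3.83e-06). WT also exceeded H499A directly (0.24 ± 0.03, limma adjusted p = 4.88e-08).

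Runx1, which encodes the DNA-binding subunit of core binding factor, fell slightly with both inhibitors and moved in opposite directions with WT and H499A. The normalised counts were 1057, 1140 and 1075 in DMSO, 1002, 982 and 960 in UNC1999, and 962, 955 and 1004 in JQEZ5. Every inhibitor library was below every DMSO library. The fall was 10.0% with UNC1999 (log2 difference -0.13 ± 0.04, limma adjusted p = 0.0129) and 10.7% with JQEZ5 (-0.14 ± 0.04, limma adjusted p = 0.0175). Both calls rest on single libraries: without DMSO library 2, the adjusted p was 0.0742 and 0.0966, and the JQEZ5 call also missed without JQEZ5 library 1 (0.0544) or 2 (0.0554). Knockdown left Runx1 at 1715, 1507 and 1517, against 1609, 1555 and 1554 in shEV, overlapping groups with a log2 difference of 0.00 ± 0.05 (limma adjusted p = 0.965). In MLL-AF9 cells it was 2028 and 1988 in EV, 2295 and 2264 in WT, and 1446 and 1445 in H499A. WT was 1.14-fold above EV (0.15 ± 0.03, limma adjusted p = 7.37e-05) and H499A at 0.72 times EV (-0.37 ± 0.03, limma adjusted p = 3.21e-11). The direct difference between WT and H499A was 0.51 ± 0.03 (limma adjusted p = 3.68e-14), a 1.58-fold higher level in WT.

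Gata2, a factor of stem and progenitor cells and of the mast cell and basophil line, fell with both forms of Kdm5b. The normalised counts were 1411 and 1404 in EV, 935 and 885 in WT, and 937 and 911 in H499A. Both Kdm5b groups stood below EV and overlapped each other. WT was at 0.647 times EV (log2 difference -0.44 ± 0.03, limma adjusted p = 7.73e-12) and H499A at 0.656 times (-0.43 ± 0.03, limma adjusted p = 2.43e-11). The difference between WT and H499A was -0.01, with a 95% interval of -0.08 to 0.05. Mast cell and basophil markers followed Gata2 only in part: of 9 such markers other than Gata2, 3 were in the table and 2 were tested. The summed count of the 3 was 362 to 389 in EV, 118 to 129 in WT and 231 to 256 in H499A. Mcpt8, a basophil protease, fell to 0.178 times EV in WT and 0.318 times in H499A, while Hdc, the histamine-forming enzyme, fell to 0.497 times in WT and rose to 1.34 times in H499A. Their part in the Gata2 result was not tested, and in bulk RNA fewer cells of a type and less RNA per cell cannot be told apart.

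Of the 3 C/EBP genes, Cebpa, the factor of the granulocyte and monocyte branch, fell with UNC1999, rose after knockdown and fell with WT and H499A. Its normalised counts were 1366, 1448 and 1361 in DMSO, 1206, 1146 and 1115 in UNC1999, and 1353, 1154 and 1259 in JQEZ5. UNC1999 libraries were all below DMSO, a fall of 16.9% (log2 difference -0.23 ± 0.05, limma adjusted p = 0.000886). The JQEZ5 difference was -0.13 ± 0.05 with an adjusted p of 0.0598, just outside the threshold. It came inside with a stricter filter (0.0499), median centring (0.0447), robust eBayes (0.0457) or without JQEZ5 library 1 (0.0145). Without JQEZ5 library 2 the difference shrank to -0.08 (adjusted p 0.256). After knockdown Cebpa counted 3198, 2926 and 3066, all above the 2381, 2337 and 2305 of shEV, a 1.31-fold rise (0.34 ± 0.04, limma adjusted p = 0.00057).

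In MLL-AF9 cells Cebpa counted 2376 and 2387 in EV, 2070 and 2103 in WT, and 928 and 976 in H499A. No groups overlapped, and H499A stood lowest. WT was 12.4% below EV (log2 difference -0.15 ± 0.03, limma adjusted p = 6.8e-05), and H499A was at 0.40 times EV (-0.99 ± 0.03, limma adjusted p = 6.07e-20). WT exceeded H499A by 2.19-fold in the direct comparison (0.84 ± 0.03, limma adjusted p = 2.54e-18). Of 7 genes listed as dendritic cell markers, 3 were in the table and only 2 were tested, Flt3 and Itgax. Both were lower in both Kdm5b groups. The sum of the 3 was 1627 to 1674 in EV, 676 to 699 in WT and 829 to 873 in H499A. So few genes of the list do not show whether dendritic cells became fewer. The part of such cells in the changes of Cebpa and Irf8 was not tested.

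Cebpb, the stress and macrophage member of the family, did not change beyond its spread in NUP98-NSD1 cells. Its normalised counts ran from 1814 to 2218 in DMSO, 1842 to 2146 in UNC1999 and 1947 to 2100 in JQEZ5. After knockdown they ran from 2096 to 2734, against 2395 to 2661 in shEV. The log2 difference was 0.00 ± 0.06 with UNC1999 (95% interval -0.12 to 0.13) and -0.04 ± 0.08 after knockdown (-0.22 to 0.15). In MLL-AF9 cells it rose in both Kdm5b groups, from 1129 and 1134 in EV to 1959 and 2110 in WT and 2697 and 2850 in H499A. The rise was 1.80-fold with WT (0.64 ± 0.03, limma adjusted p = 2.49e-15) and 2.45-fold with H499A (1.00 ± 0.03, limma adjusted p = 2.42e-19). WT was at 0.733 times H499A in the direct comparison (-0.37 ± 0.03, limma adjusted p = 3.39e-10).

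The number of Cebpa reads per Cebpb read, which does not depend on scaling between libraries, sums up these opposed changes. It was 2.10 in each EV library, 1.06 and 0.997 in WT, and 0.344 and 0.342 in H499A. The H499A libraries thus held fewer Cebpa than Cebpb reads, the EV libraries more, and WT libraries about as many of each. In the knockdown experiment the ratio was 0.946, 0.878 and 0.963 in shEV and 1.17, 1.4 and 1.2 in shKdm5b. With the inhibitors it moved down from 0.753, 0.653 and 0.681 in DMSO to 0.562, 0.559 and 0.605 in UNC1999, without overlap, and was 0.677, 0.593 and 0.599 in JQEZ5, overlapping DMSO. Of 3 libraries against 3, an exact permutation test cannot give a p under 0.1, and of 2 against 2 none under 0.333, so no test of the ratio is given.

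**Figure D3:**
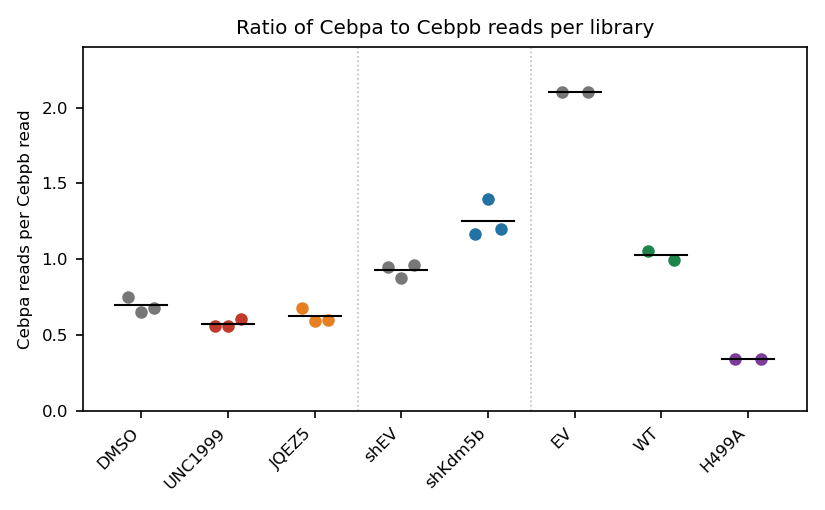
Cebpa reads per Cebpb read in each library (linear axis from 0), by group, with bars at the group means and dotted lines between the 3 experiments. EV libraries lie at 2.10, WT libraries near 1, and H499A libraries at 0.344 and 0.342.

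Cebpe, the factor of late neutrophil development, was scarce in NUP98-NSD1 cells and differed most between WT and H499A. The normalised counts were 132 and 127 in EV, 147 and 141 in H499A, and 32.6 and 28.5 in WT. WT stood apart from both other groups, at 0.235 times EV, from 118 to 134 reads in EV libraries and 29 to 31 in WT. In the fit of all genes this was a log2 difference of -0.48 ± 0.04 (limma adjusted p = 1.28e-07), and WT was at 0.212 times H499A (-0.53 ± 0.04, limma adjusted p = 7.21e-08). The difference of H499A from EV was 0.05 ± 0.04 (limma adjusted p = 0.387). In the knockdown experiment Cebpe had 6 to 9 reads per library in shEV and 6 to 30 in shKdm5b, with normalised counts of 30.1, 23.7 and 8.19 in the latter. The difference of 0.21 ± 0.07 did not pass (limma adjusted p = 0.0661), though without shKdm5b library 3 it was 0.29 with an adjusted p of 0.00807. UNC1999 libraries stood at 45, 33.7 and 58.9 against 25.7, 33.4 and 31.0 in DMSO, a difference of 0.16 ± 0.07 that missed the threshold too (limma adjusted p = 0.107). Without UNC1999 library 2 that adjusted p was 0.0425.

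Irf8, the monocyte and dendritic cell factor, fell with the PRC2 inhibitors and rose after both knockdown and overexpression of Kdm5b. The normalised counts were 2175, 2286 and 2203 in DMSO, 2012, 2074 and 1904 in UNC1999, and 1948, 1836 and 1951 in JQEZ5. Every inhibitor library was below every DMSO library. The fall was 10.1% with UNC1999 (log2 difference -0.14 ± 0.04, limma adjusted p = 0.00598) and 14.0% with JQEZ5 (-0.20 ± 0.04, limma adjusted p = 0.00117). Knockdown gave 6805, 5826 and 6014, against 4099, 4045 and 3819 in shEV, a 1.56-fold rise without overlap (0.60 ± 0.06, limma adjusted p = 0.000177). Mcpt8 rose 36.7-fold in the same knockdown libraries. The sum of the 3 mast cell and basophil markers in that table was 2505 to 2846 in shKdm5b and 86.8 to 109 in shEV. This sum includes Mcpt8, so it does not show how the other markers moved. The part of mast cells or basophils in the rise of Irf8 and Cebpa was not tested.

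In MLL-AF9 cells Irf8 counted 3549 and 3428 in EV, 5481 and 5677 in WT, and 4256 and 4224 in H499A. The 3 groups were apart, with WT highest. WT was 1.60-fold above EV (log2 difference 0.60 ± 0.03, limma adjusted p = 9.18e-17) and H499A 1.22-fold (0.25 ± 0.03, limma adjusted p = 9.71e-09). The direct difference of 0.36 ± 0.03 was called as well (limma adjusted p = 9.74e-12). The 2 experiments on Kdm5b used different fusions and vectors, and the 2 rises were not tested against each other.

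Klf4, which acts with IRF8 in monocytes, was the one tested member called between the inhibitors. The normalised counts were 138.2, 142.5 and 149.9 in DMSO, 275.6, 259.5 and 215.8 in UNC1999, and 167.1, 152.3 and 167.9 in JQEZ5. The UNC1999 libraries lay above all others, and the JQEZ5 libraries lay just above DMSO. UNC1999 was 1.74-fold above DMSO (log2 difference 0.43 ± 0.06, limma adjusted p = 2.3e-05), while the JQEZ5 difference was 0.09 ± 0.06 (95% interval -0.04 to 0.21, limma adjusted p = 0.323). After knockdown Klf4 was 2.04-fold higher, at 40.1, 38.05 and 42.32 normalised counts against 19.97, 20.31 and 18.88 in shEV. These were 31 to 40 reads per library against 20 to 24, and the difference of 0.20 ± 0.04 was called in the fit of all genes (limma adjusted p = 0.00771). In MLL-AF9 cells it had 13 to 25 reads per library and no called difference.

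Gfi1, the repressor that favours granulocytes, changed only in the MLL-AF9 cells among the comparisons with controls. Its normalised counts ran from 508 to 555 in DMSO, 463 to 528 in UNC1999 and 505 to 615 in JQEZ5, and from 2112 to 2238 in shEV against 2154 to 2253 in shKdm5b. None of the 3 differences passed (limma adjusted p = 0.321, 0.523 and 0.686). In EV it counted 355 and 281, in WT 384 and 378, and in H499A 486 and 481. H499A was 1.52-fold above EV (log2 difference 0.31 ± 0.04, limma adjusted p = 1.58e-06). WT was 1.2-fold above EV (0.13 ± 0.04, limma adjusted p = 0.0123), a call that was lost without EV library 2 (0.05, limma adjusted p = 0.349) and under quantile normalisation (0.10, limma adjusted p = 0.0547). WT was below H499A directly (-0.18 ± 0.04, limma adjusted p = 0.00126). Irf8 reads per Gfi1 read went from 1.94, 1.81 and 1.75 in shEV to 3.02, 2.60 and 2.79 in shKdm5b, and were 9.99 and 12.2 in EV, 14.3 and 15.0 in WT, and 8.76 and 8.79 in H499A.

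The inhibitors were compared at the same dose and time, as 1 pair over 8 members. Klf4 was 1.54-fold higher with UNC1999 (log2 difference 0.34 ± 0.06, limma adjusted p = 0.000376). For the rest the difference did not pass, with 95% intervals of -0.09 to 0.10 for Spi1, -0.13 to 0.12 for Cebpb, -0.20 to 0.00 for Cebpa, -0.02 to 0.14 for Irf8, -0.25 to -0.01 for Gfi1, -0.07 to 0.09 for Runx1 and -0.01 to 0.31 for Cebpe. On this compressed log2 scale, the Klf4 difference lay above the upper bounds of the other 6 tested members. Cebpe, below the filter, had 45.9 normalised counts with UNC1999 and 31.2 with JQEZ5, a ratio that its compressed log2 scale understates, so a fold of the size seen for Klf4 is not excluded for it. Cebpa passed without JQEZ5 library 2 (adjusted p 0.0191), and Gfi1 passed without JQEZ5 library 3 (0.0381) or UNC1999 library 3 (0.0323).

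A list of 48 other transcription factors of myeloid cells gives the setting of the members. With UNC1999, 10 of 36 tested rose and 18 fell, where 23.9% and 24% of all genes did. With JQEZ5, 8 rose and 17 fell, where 13.1% and 10.5% of all genes did. The medians were -0.09 and -0.10 log2 units, with the 2 comparisons sharing the DMSO libraries. Maf, a macrophage factor, rose 3.12-fold with UNC1999 and 1.72-fold with JQEZ5, Id2, an inhibitor of E proteins, 2.12-fold and 1.61-fold, and Mitf 1.97-fold and 1.47-fold. Among those that fell, Tcf4 went to 0.659 times DMSO with UNC1999 and 0.689 times with JQEZ5. Cebpd, another C/EBP gene, and Irf1 fell to 0.701 and 0.718 times with UNC1999, and Zfpm1, the partner of GATA factors, and Rara, a retinoic acid receptor, to 0.632 and 0.761 times with JQEZ5. Directly between the inhibitors, 14 were higher with UNC1999 and 5 lower (18.7% and 17.7% of all genes). Maf at 1.81-fold and Mitf at 1.35-fold were among the first, and Erg at 0.775, Fli1 at 0.881 and Klf2 at 0.893 times among the second.

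After knockdown 13 of 37 other factors rose and 15 fell (15% and 17.4% of all genes), with a median of -0.07. The 28 calls dropped to 17, 18 and 17 when shEV library 1, 2 or 3 was left out. Spib, the nearest relative of Spi1, was at 43.8 ± 7.23 normalised counts (SD, n = 3) against 330.5 ± 26.9, or 0.133 times shEV, while Spi1 itself was not called. Maf fell to 0.482 times and Bach1 to 0.741 times. Klf2 rose 1.71-fold, Id2 1.53-fold and Klf13 by 0.40 log2 units. In MLL-AF9 cells 17 of 37 rose and 11 fell with WT (29.8% and 32.4% of all genes), and 13 rose and 14 fell with H499A (22.7% and 26.9%), with medians of 0.04 and 0.01 and shared EV libraries. Cebpd rose 2.53-fold and 2-fold, and Ets1 4.01-fold and 5.45-fold. Maf was 5.71-fold above EV with WT, and Irf7, an interferon factor, 3.29-fold with H499A. Zfpm1, Gfi1b and Zbtb16 fell in both, Zfpm1 to 0.315 times EV with WT and 0.571 with H499A, Gfi1b to 0.478 and 0.372, and Zbtb16 to 0.427 and 0.523. Between WT and H499A, 17 were higher in WT and 9 lower (28.2% and 26.3% of all genes), with Maf at 2.14-fold, Bcl6 at 2.10-fold and Cebpg at 1.39-fold against Irf7 at 0.191, Zfpm1 at 0.551 and Lmo2 at 0.79 times.

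Textbook targets were listed for each member, 44 genes in all without the members themselves. Of 34 tested, 23 rose and 9 fell with UNC1999 (23.9% and 24% of all genes), and 16 rose and 8 fell with JQEZ5 (13.1% and 10.5%). After knockdown 9 of 30 rose and 10 fell (15% and 17.4% of all genes). Of 29 tested in MLL-AF9 cells, 16 rose and 11 fell with WT (29.8% and 32.4% of all genes), and 18 rose and 6 fell with H499A (22.7% and 26.9%). The counts by member that follow, over few genes each, are to be read against these same shares of all genes. The medians were 0.26, 0.06, 0.07, 0.33 and 0.26 log2 units. Many targets answer to more than one of these factors, so a count does not single out a member. Unlike the joint counts, the counts by member keep any other member that a list holds, as Cebpa for RUNX1.

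For PU.1, whose gene did not change with the inhibitors, 6 of 8 tested targets rose with UNC1999, among them Csf1r, the receptor of the monocyte growth factor, 1.83-fold, and the integrin Itgam, 1.32-fold. With JQEZ5 3 of 8 rose, Csf1r by 1.16-fold. In MLL-AF9 cells, where Spi1 rose, 5 of 7 rose with WT and 6 of 7 with H499A. Csf1r was 4.30-fold above EV with WT and 2.73-fold with H499A, and Cybb, the catalytic subunit of the phagocyte oxidase, 3.25-fold and 2.94-fold. After knockdown 2 rose and 4 fell, Tlr4 going up 1.58-fold and the Fc receptor gene Fcgr1 down to 0.574 times.

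For C/EBPα, the counts followed no single direction. With UNC1999, where Cebpa fell, 5 of 6 tested targets fell and 1 rose. The granule genes Mpo and Prtn3 were at 0.669 and 0.688 times DMSO. With JQEZ5 3 fell and 1 rose, with Il6ra, an interleukin receptor, at 0.814 times and Elane, the neutrophil elastase, at 1.29-fold. After knockdown, where Cebpa rose, 2 rose and 2 fell, with Elane at 1.93-fold and Csf3r, the granulocyte growth factor receptor, at 0.806 times. In H499A, where Cebpa was lowest, 2 rose and 2 fell: Elane was at 0.327 times EV and Sox4, a gene that C/EBPα represses, at 0.63 times. In WT 3 rose and 3 fell, with Csf3r at 2.05-fold and Sox4 at 0.529 times. Mpo was 1.37-fold higher in WT than in H499A.

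For C/EBPβ, 6 of 6 tested targets rose with UNC1999 and 5 of 6 with JQEZ5, while Cebpb itself did not change beyond its spread. Arg1, arginase of macrophages, rose 11.7-fold and 3.27-fold, and Ptgs2, an inducible prostaglandin enzyme, 2.96-fold and 2.71-fold. Directly between the inhibitors, UNC1999 gave 3.57-fold more Arg1 and 2.23-fold more Il1b. Of 3 tested after knockdown, 1 fell, Il10 to 0.352 times. In MLL-AF9 cells only Il1b was tested, 2.63-fold above EV with WT and 3.16-fold with H499A. For C/EBPε, the late granule genes Mmp8 and Lcn2 were tested. Mmp8 rose in every comparison with a control: 4.01-fold with UNC1999, 1.63-fold with JQEZ5, 2.24-fold after knockdown, 4.56-fold with WT and 2.77-fold with H499A. Mmp8 was thus also higher in WT, where Cebpe was at its lowest of the 3 MLL-AF9 groups, and Lcn2 was at 0.509 times H499A there.

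For IRF8, 6 of 7 tested targets rose and 1 fell with UNC1999, and 3 rose and 1 fell with JQEZ5, where Irf8 fell. For the same list, 1 of 6 rose and 2 fell after knockdown, where Irf8 rose, and 5 of 6 rose with each form of Kdm5b. Ctsc, a lysosomal protease, was at 0.671 times DMSO with JQEZ5, 0.862 times shEV after knockdown, and 1.58-fold and 1.40-fold above EV with WT and H499A. Asah1, a lysosomal ceramidase, was 1.35-fold above DMSO with UNC1999 and 1.16-fold above shEV after knockdown. For KLF4, 3 of 3 tested targets rose with UNC1999, 2 of 3 with JQEZ5 and 2 of 2 with each form of Kdm5b, and 1 rose and 1 fell after knockdown. Cd14, a monocyte receptor, rose 2.35-fold with UNC1999, 1.59-fold with JQEZ5, 2.62-fold with WT and 1.17-fold with H499A, and fell to 0.856 times after knockdown. Cdkn1a, a cell cycle inhibitor, was 1.26-fold above shEV after knockdown.

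For GFI1, a repressor, 3 of 6 tested targets rose and 3 fell with UNC1999. Csf1, the monocyte growth factor, was at 447 ± 73.8 normalised counts (SD, n = 3) against 67.3 ± 2.94 in DMSO, 6.64-fold, and 3.23-fold above DMSO with JQEZ5. With H499A, where Gfi1 was highest, 3 rose and 2 fell, with Cdkn1a at 1.67-fold. With JQEZ5 2 of 6 targets of GFI1 rose and 3 fell, after knockdown 3 of 5 rose and 1 fell, and with WT 2 of 6 rose and 4 fell. For RUNX1, 5 targets were tested. With UNC1999, 2 rose and 2 fell, with JQEZ5 2 rose and 0 fell, and after knockdown 2 rose and 1 fell. With WT, where Runx1 rose, 3 rose and 2 fell, and with H499A, where it fell, 2 rose and 2 fell. In WT against H499A, 5 of 5 were higher in WT, where 28.2% of all genes were. These 5 include Mpo and Cebpa, the latter itself a member whose difference is given above. Of 2 targets of GATA2 tested in NUP98-NSD1 cells, 1 fell with UNC1999, 1 rose and 1 fell with JQEZ5 and 0 were called after knockdown. In MLL-AF9 cells, 4 of 4 tested targets fell with WT, and 3 fell and 1 rose with H499A. The riser was Hdc, and Kit, the stem cell factor receptor, was at 0.787 and 0.799 times EV. Kit was 1.18-fold above DMSO with JQEZ5 and 0.842 times JQEZ5 with UNC1999, and Lyl1 was at 0.862 and 0.907 times DMSO with UNC1999 and JQEZ5.

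**Figure D4:**
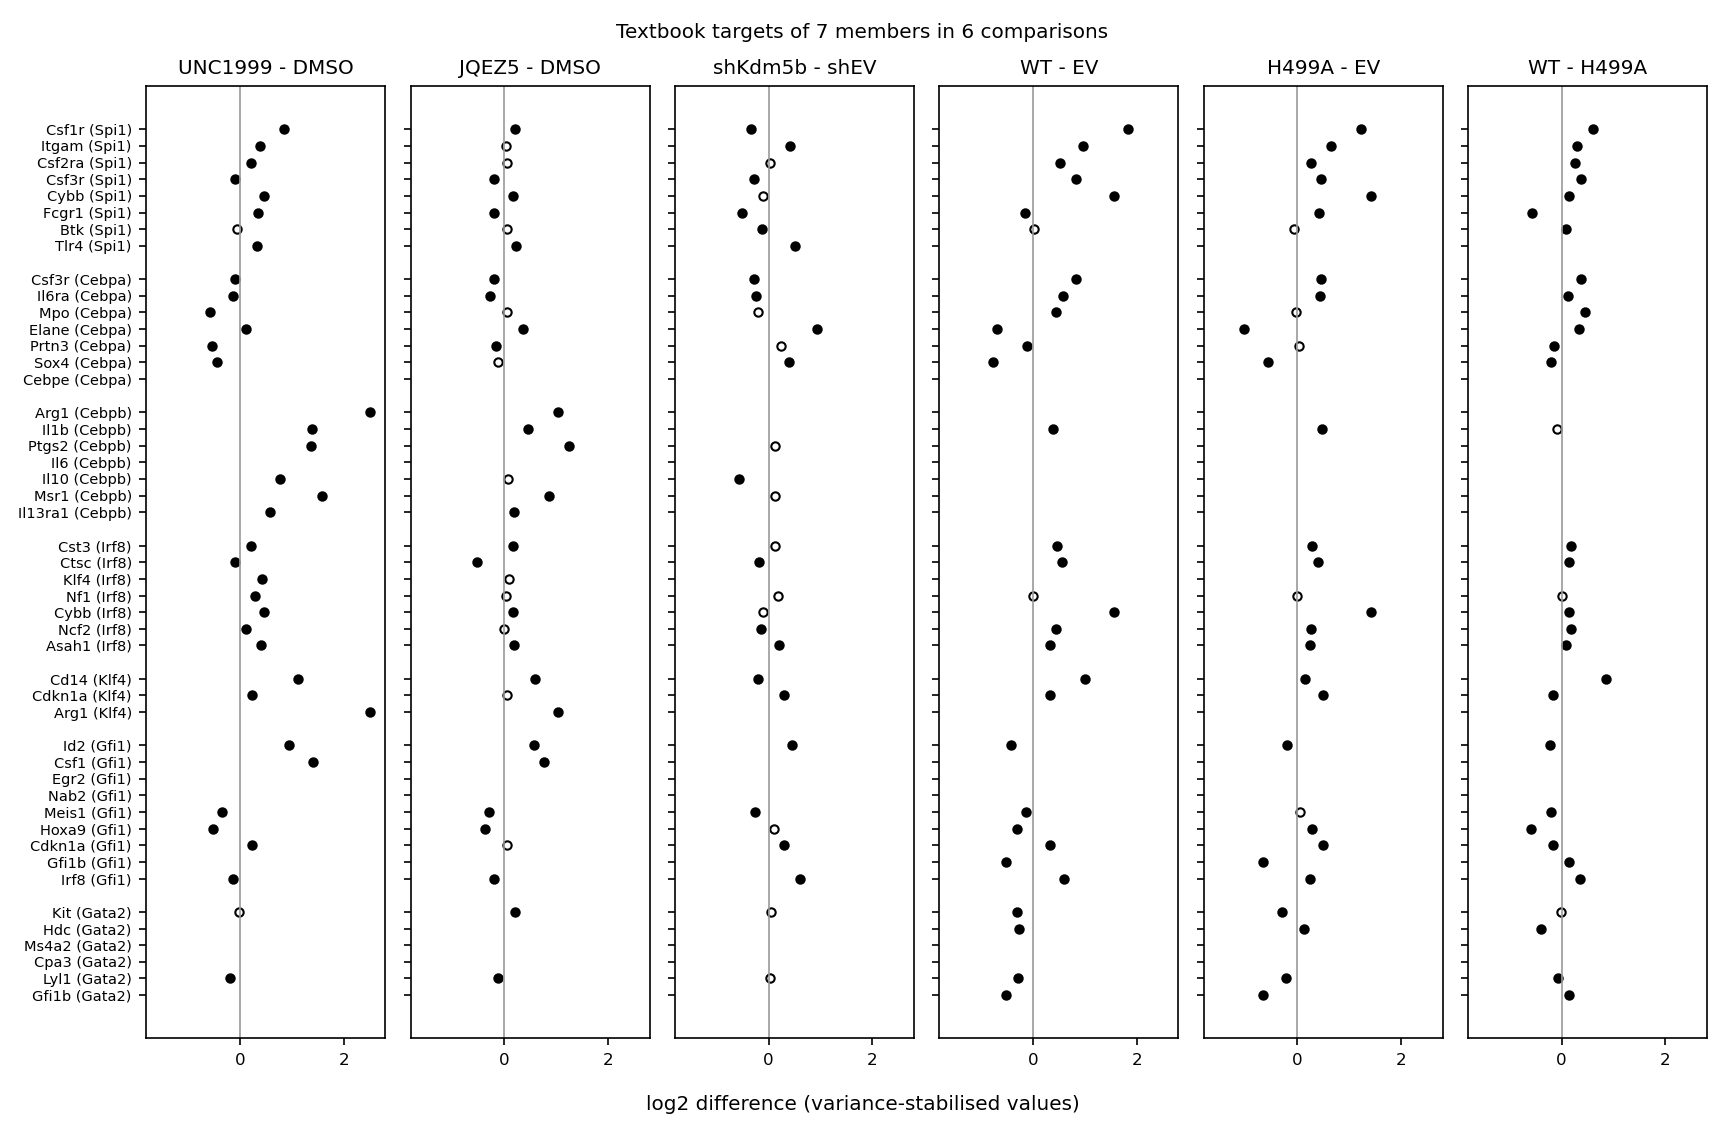
Log2 differences of the textbook targets that passed the filter, by comparison, for the members other than Cebpe and Runx1. Filled points mark an adjusted p under 0.05 (limma). Arg1 with UNC1999 is the highest point at 2.51, and points lie on both sides of 0 in most columns.

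Markers of other blood cells moved beside these genes in places. The megakaryocyte list had 1 tested member in NUP98-NSD1 cells, Vwf, which rose 7.44-fold with UNC1999 and 3.68-fold with JQEZ5, and the sum of the list, most of it Vwf, was 1922 to 1964 with UNC1999, 927 to 999 with JQEZ5 and 304 to 347 in DMSO. Of the 4 markers of that list below the filter, none was called higher with either inhibitor. With JQEZ5, Pf4 was at 0.521 times DMSO, Gp9 at 0.538, Ppbp at 0.166 and Itga2b at 1.04. Of these, Ppbp was called in the fit of all genes (limma adjusted p = 0.0174). With UNC1999 they were at 1.33, 0.407, 1.06 and 1.51 times DMSO in the same order. Only Gp9 lay below DMSO there, and it was called in the fit of all genes (limma adjusted p = 0.0332). The B cell gene Cd79b fell to 0.451 and 0.357 times DMSO and to 0.21 times shEV, while the pre-B gene Igll1 rose 53.2-fold after knockdown. With H499A Cd79b was 2.08-fold above EV and with WT at 0.718 times. Of the erythroid list, Tfrc was tested, at 0.599 and 0.719 times EV with WT and H499A. Of the eosinophil list, Siglecf was tested, at 0.405 and 0.629 times EV. T and NK cell markers were below the filter in every table, and dendritic markers in the inhibitor and knockdown tables. The part of such cells in the results above was not tested.

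The genes whose pattern was nearest to a member were taken by Pearson's r over the 21 libraries, each centred within its table, among 8505 genes that passed the filter in all tables. These libraries share 3 tables and their groups, so r is a description. Nearest to Spi1 were Tyrobp, the adaptor of myeloid receptors (0.924), Dok3 (0.908) and Ucp2 (0.89). Nearest to Cebpa were Fam117a (0.928), Serpinb1a, a neutrophil protease inhibitor (0.898), and Znrf1 (0.891). Nearest to Cebpb were Slpi, a protease inhibitor (0.927), Hp, haptoglobin (0.907), and Vasp (0.899). Cebpe was ranked although below the filter in all 3 tables, as was Klf4, below it in the knockdown and overexpression tables. Nearest to Cebpe were Tpi1 (0.911), Bnip3 (0.906) and Pgm2 (0.888). Nearest to Irf8 were Themis2 (0.927), Adipor1 (0.925) and Bckdha (0.919), and to Klf4 Pttg1ip (0.923), Sfi1 (0.913) and Cyb5r3 (0.909). Runx1 was nearest to Mospd3 (0.914), Tmem176b (0.872) and Eif3f (0.863). Gfi1 had the weakest neighbours, Spata13 (0.793), Zfp568 (0.758) and Ldah (0.755). Among members, r over all 21 libraries was 0.83 between Cebpa and Runx1 and -0.70 between Cebpa and Cebpb. It was -0.70 between Spi1 and Cebpe and 0.62 between Cebpb and Gfi1. Each was strongest in the overexpression libraries, at 0.91, -0.86, -0.85 and 0.91 in the same order. In the inhibitor libraries they were 0.79, 0.27, -0.29 and -0.38, and in the knockdown libraries 0.21, 0.02, -0.45 and -0.05. The sign for the pairs with Cebpb thus differed between experiments. Gata2, measured in 1 table, was not ranked.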

How the data were processed

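The authors deposited 3 tables of log2 values after a variance-stabilising transformation. Per the submitters' processing notes, STAR 2.4.2, Salmon 0.1.19 and DESeq2 1.38.2 were used with mm10 (GRCm38.p4). Columns were matched to samples by name. The transformation was undone in closed form, and 100% of the resulting counts were whole multiples of 1 step per library at a tolerance of 0.05, which gave whole reads and depth. The filter corresponds to 59.0, 86.6 and 145 normalised counts in the inhibitor, knockdown and overexpression tables, and rows with ambiguous date-like names (2, 4 and 2) were dropped. Group means were fitted to each table in limma 3.58.1 (R 4.3.3), using eBayes with trend, after the code was tested on simulated data. The alternatives changed the filter (none, or 2 log2 units), the scaling (medians centred, or quantiles made equal) and eBayes (no trend, or robust). Others added the replicate block, kept only the groups compared, used voom on the recovered reads or left out each library.

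The members and gene lists were chosen with earlier results of these data known. Beside the members, the genes named are, per comparison, up to 3 called other transcription factors with the largest rise and 3 with the largest fall whose libraries did not overlap, up to 2 called targets of the lowest adjusted p per member, the 3 genes most like each member, and Kdm5b. Markers of other cells, and targets repeated in a further comparison, were named after their values were seen. Members of a list that were not in a table were not analysed here. Of the genes chosen by the rule, 1 is not reported here.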

Additional observations from a re-analysis of the deposited data

Results flagged for a closer look

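Runx1 moved in opposite directions in the MLL-AF9 cells, with both WT libraries (2295 and 2264 normalised counts) above and both H499A libraries (1446 and 1445) below the EV libraries (2028 and 1988). The difference between WT and H499A was itself tested and was 0.51 log2 units (limma adjusted p = 3.68e-14). No group held the 4 libraries that a check for a single outlying library needs.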

How the results depend on the processing

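Of 294 recomputed counts of called genes 283 stayed within 1.5 times the reported count, and of 795 recomputed member differences 779 kept direction and side of the threshold, 10 passed newly, 6 no longer passed and 0 changed sign as calls. The filter at 2 log2 units left 0 members called between UNC1999 and JQEZ5, since Klf4 was not tested there, and 16 other transcription factors both with WT and between WT and H499A, where 23 were tested. Leaving out 1 library gave 1 to 2 members with JQEZ5 (1 without DMSO 2 or JQEZ5 2), 1 to 2 between the inhibitors (2 without JQEZ5 2, JQEZ5 3 or UNC1999 3) and 17 to 29 other factors after knockdown. With 2 libraries in a group, leaving out 1 assumes that the remaining library varies like the other groups. The causes were not tested. Low read numbers limit Cebpe and, outside the inhibitor experiment, Klf4.

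No pairing of libraries by replicate number was seen, after each library was centred on its group. Same-numbered libraries correlated at -0.081 to 0.16, -0.151 to 0.223 and -0.054 to -0.012 in the inhibitor, knockdown and overexpression experiments. They correlated best with their own number in 3 of 18, 2 of 6 and 0 of 12 cases. With 2 libraries per group the centred values mirror each other, so the 12 overexpression cases are not separate. These few cases cannot exclude a pairing. With the replicate block, members called were 4 with UNC1999, 2 with JQEZ5, 1 between them, 2 after knockdown, 7 with WT, 7 with H499A and 6 between WT and H499A.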
